A study of Mus musculus with 8 samples.

Results

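The DNA replication machinery was followed through 37 genes, chosen by name for their roles in origin licensing, helicase activation, DNA synthesis and nucleotide supply. The choice was made with earlier results of these data known. All 37 were found by their Ensembl identifiers among the 56923 genes of the count files. They were read in thymic epithelial cells (TECs), the stromal cells of the thymus that support T cell development. The assay was QuantSeq 3′ mRNA sequencing, which counts tags at the 3′ end of polyadenylated transcripts. The study set TEC organoids beside a standard monolayer culture and beside cells taken directly from the thymus. There were 4 conditions with 2 libraries each. *In vivo* TECs were EpCAM+ cells sorted from thymi of wild-type E16.5 C57BL/6J fetuses and lysed at once. In 2D, sorted TECs were grown on laminin until they formed a confluent monolayer, which took 3 days. TEC organoids were grown from sorted TECs in Matrigel and collected after 3 days (D3) or 7 days (D7). Sorted cells were collected in medium with FGF7, serum and the kinase inhibitor thiazovivin. All cultures were kept in medium with FGF7, organoids with thiazovivin also in the first days. No group carried a genetic change or received a further treatment. The labels name the libraries of a condition biological replicates, and the study counts mice as the replicates of this assay, without saying whether fetuses were pooled. P-values measure the spread between these libraries. With 2 libraries against 2, an exact permutation test on a single gene cannot go below a two-sided p of 0.333. Differences were therefore tested in 1 edgeR quasi-likelihood model of the 8 libraries across all genes.

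Chromosomal DNA is copied in steps that each need their own proteins. In G1, the origin recognition complex with CDC6 and CDT1 loads the MCM2-7 helicase onto DNA, and geminin blocks further loading once S phase has begun. CDC45, MCM10 and the GINS complex switch the helicase on. The primase and polymerases copy the strands, and the PCNA clamp and its RFC loader hold the polymerases in place. FEN1 and DNA ligase 1 join the Okazaki fragments of the lagging strand. Ribonucleotide reductase, thymidylate synthase and thymidine kinase supply the deoxynucleotides. Transcription of many of these genes is driven by E2F factors as cells enter S phase. They are widely used as a sign of proliferation. Fetal TECs are known to divide actively while the thymus grows.

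The libraries held 5084715 to 7612532 counts, of which 6140 to 24231 fell on the 37 genes, and no library was a copy of its replicate, since their counts differed beyond sampling noise. Levels are given in CPM, the usual unit of counts relative to library size, with library sizes scaled by TMM. They were not divided by length, since each transcript gives tags only at its end. All 37 genes reached 1 CPM in 3 or more libraries and were among the 14504 genes tested. Log2 fold changes are given ± SE. A gene is called higher or lower where its Benjamini-Hochberg adjusted p lies under 0.05 over those genes. The labelled cell type was read from its markers. *Epcam* was present in every library (191 to 811 CPM) and lowest *in vivo*. The cortical TEC marker *Psmb11* was at 522 and 554 CPM *in vivo*, at 0.505 to 0.975 CPM in 2D and D3 organoids, and at 106 and 112 CPM in D7 organoids. *Foxn1*, *Prss16*, *Ly75* and *Cd83* were also lower in every cultured library than *in vivo*, and at D7 *Ly75* was at 35.0 and 44.3 CPM against 360.0 and 420.3 *in vivo*, and *Cd83* at 2.72 and 3.55 against 138 and 154. The keratins *Krt8* and *Krt18* were above *in vivo* in 2D and below it in organoids, with *Krt8* at 377 and 460.5 CPM *in vivo*, 1019 and 894 in 2D and 65.8 to 103 in organoids. *Krt5* was highest in 2D and lowest at D7, and *Krt14* was at 19.8 and 22.2 CPM *in vivo* and 916 and 1044 in 2D. The *in vivo* libraries also held thymocyte transcripts, although CD45, carried by thymocytes, was among the antigens stained for the sort. The summed level of 16 thymocyte markers was 1068 CPM in *in vivo* replicate 1, 495 CPM in *in vivo* replicate 2 and 21.1 to 63.7 CPM in the cultured libraries. In each cultured library 8 of the 16 had at most 3 counts, and *Rag2*, *Ptcra* and *Cd2* were at 0 throughout. *Cd4*, *Cd8a* and *Dntt* had at most 2 counts in each *in vivo* library. Dividing thymocytes express replication genes too. Replicate 1 held the higher value in 27 of the 37 genes *in vivo* (median log2 difference 0.17). It did so in 25 in 2D (0.20), 23 in D3 organoids (0.09) and 17 in D7 organoids (-0.03). The part of thymocytes in these gaps and in the differences against *in vivo* TECs was not tested. Marker sums of mesenchyme were 49.4 and 49.8 CPM *in vivo* and 18.3 to 80.6 CPM in culture, and those of endothelium and erythroid cells reached at most 11.95 CPM in any library. At their 3′ ends, 10 of the 37 genes (*Orc1*, *Mcm7*, *Cdc45*, *Gins2*, *Prim1*, *Rfc2*, *Rfc4*, *Rfc5*, *Fen1* and *Tk1*) overlap a gene on the other strand. The strand setting of the counting is not given in the sources used here, so reads of such a pair may not be told apart. In such bulk samples, fewer cells in S phase and less RNA per cell cannot be told apart.

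D3 organoids carried the highest mean level of each of the 37 genes. The mean log2(CPM + 1) over the genes was 5.44 and 5.24 in the *in vivo* libraries, 4.48 and 4.37 in 2D, 6.12 and 6.04 in D3 organoids and 5.27 and 5.22 in D7 organoids. The libraries of D3 organoids lay above, and those of 2D below, every other library. Summed over the genes, the level was 2010 ± 170 CPM *in vivo* (SD, n = 2), 1197 ± 84.9 CPM in 2D, 3571 ± 276 CPM in D3 organoids and 2134 ± 71.1 CPM in D7 organoids. *In vivo* TECs and D7 organoids overlapped in this mean level and are the neighbours in the order that did not differ beyond their spread. Gene by gene, both D3 libraries lay above the other 6 in 27 of the 37 genes, and both 2D libraries lay below the other 6 in 26. How often these patterns occur over all genes was not counted, so the counts only describe the 37 genes. The group means fell in the order D3, *in vivo*, D7, 2D for 16 genes and D3, D7, *in vivo*, 2D for 12. For 5 genes (*Gmnn*, *Mcm4*, *Gins1*, *Fen1* and *Rrm2*) the lowest mean was that of D7 organoids, and for 4 genes (*Orc1*, *Gins4*, *Rfc1* and *Rrm1*) it was that of *in vivo* TECs.

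**Figure D1:**
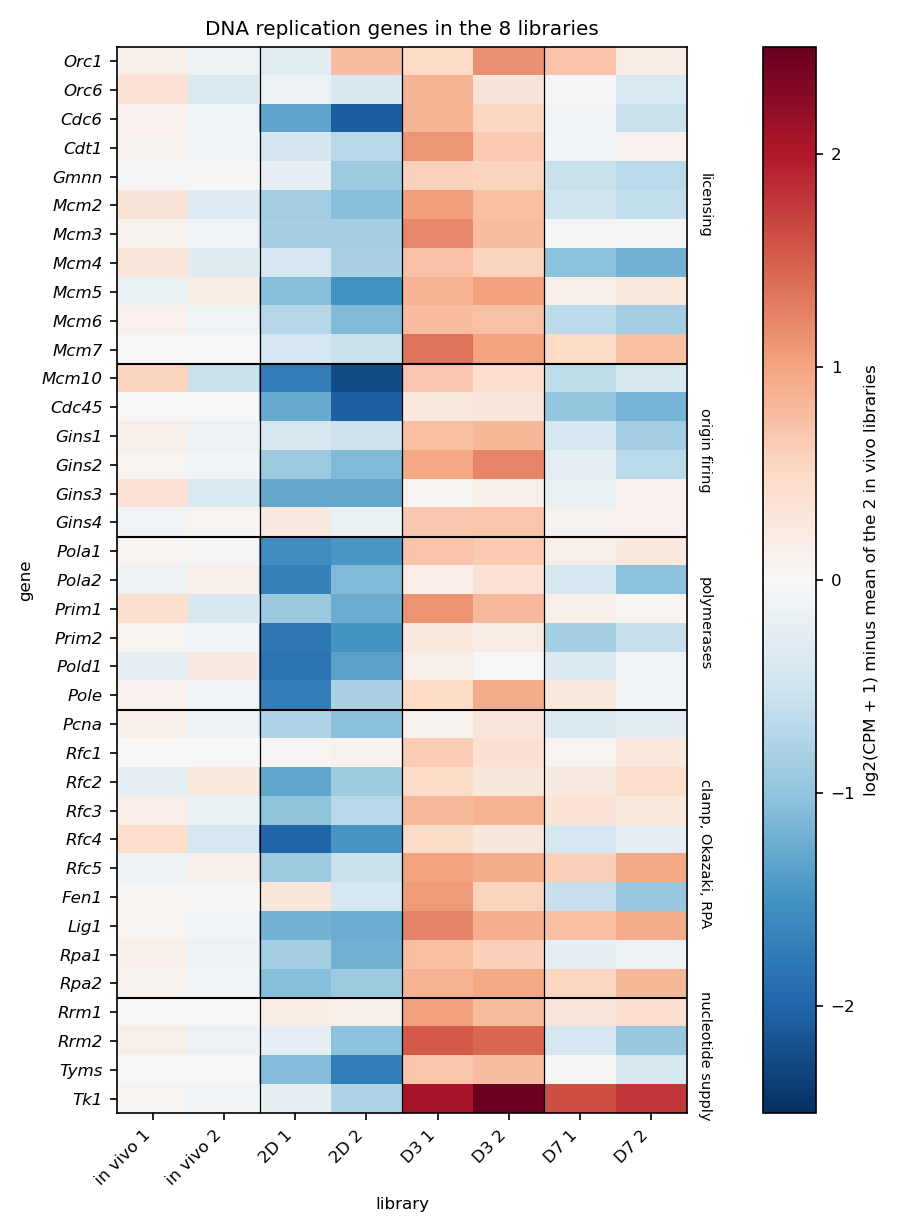
Level of the 37 DNA replication genes (rows, ordered by role) in the 8 libraries (columns), as log2(CPM + 1) minus the mean of the 2 *in vivo* libraries, red above and blue below it. The D3 organoid columns are red in nearly every row, the 2D columns are blue in most rows, and in the D7 columns *Tk1*, *Lig1*, *Rfc5*, *Rpa2* and *Mcm7* stay red while *Mcm4*, *Cdc45*, *Fen1* and *Rrm2* are blue.

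Tested gene by gene, 27 of the 37 genes were lower in 2D than *in vivo* and 0 higher, where 21.7% of all genes tested were lower. The median log2 fold change was -1.02 over the 37 genes and -0.06 over all genes. In D3 organoids, 23 were higher than *in vivo* and 0 lower (14.1% of all genes were higher). The median was 0.76, and the estimate was positive in all 37. Against 2D, 36 of the 37 were higher in D3 organoids (19.3% of all genes), with a median of 1.74, and only *Orc1* was not called. In D7 organoids, 23 were higher than in 2D (24.4% of all genes) and 1, *Fen1*, was lower (21.1%), with a median of 0.85 beside 0.10 over all genes. From D3 to D7 organoids, 26 were lower and 0 higher, where 9.9% of all genes were lower. The median was -0.83, and the estimate was negative in all 37. D7 organoids and *in vivo* TECs differed in both directions, with 5 genes higher (18% of all genes) and 7 lower (16.8%), shares close to those of all genes, and a median of -0.17. Several of these comparisons share libraries and are not independent of each other. Without *in vivo* replicate 1, the library richer in thymocyte transcripts, the medians of the 37 genes over *in vivo* were -0.78 in 2D, 0.87 in D3 organoids and 0.02 in D7 organoids. The *in vivo* library that remained held thymocyte transcripts too, so this fit cannot measure their part. Single libraries moved some counts. Without *in vivo* replicate 2 or D3 replicate 1, 14 and 13 genes were higher in D3 organoids than *in vivo*. Without D3 replicate 1, D7 replicate 1 or D7 replicate 2, 15, 14 and 12 genes fell from D3 to D7. Without D7 replicate 2, the comparison of D7 organoids with *in vivo* TECs held 2 genes higher and 2 lower. No estimate of a called gene changed sign in any of these fits.

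Because E2F factors are the best known regulators of these genes, the promoters were searched for their binding words. RefSeq promoter windows, from 250 bases before to 50 after the start, were held for 29 of the 37 genes. The words TTTCCCGC, TTTGGCGC, TTTCGCGC and TTTGCCGC were looked for on both strands. At least 1 of them was in the window of 12 of the 29 genes (41.4%), against 704 of 27025 genes with a window (2.6%) and 490 of 10300 genes that had a window and were tested here (4.76%). The 12 were *Orc1*, *Cdc6*, *Cdt1*, *Mcm3*, *Mcm5*, *Mcm6*, *Mcm7*, *Gins3*, *Pola1*, *Pold1*, *Rfc3* and *Lig1*. Shown are the words that lie before the start and outside annotated exons, with 20 bases on each side. They run 5′ to 3′ on the strand of the gene, with the words in capitals. Positions are those of an exact match of the RefSeq window (GRCm38.p6) to GRCm39.
*Cdc6*, chr11:98798819-98798866, plus strand, in an intron of an annotated *Cdc6* transcript: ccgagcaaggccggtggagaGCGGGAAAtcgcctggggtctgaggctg
*Mcm5*, chr8:75835964-75836015, plus strand, 125 bases before the annotated gene: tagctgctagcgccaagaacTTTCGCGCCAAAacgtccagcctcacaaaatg
*Mcm6*, chr1:128287521-128287572, minus strand, 5 bases before the annotated gene: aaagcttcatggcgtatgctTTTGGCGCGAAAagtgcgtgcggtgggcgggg
*Pola1*, chrX:92675872-92675919, minus strand, 59 bases before the annotated gene: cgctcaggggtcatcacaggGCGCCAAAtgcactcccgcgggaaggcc
In *Mcm5* and in *Mcm6*, 2 words on opposite strands overlap by their shared GCGC core, so that the capitals run over 12 bases. The CCAAT word, bound by NF-Y, was in the windows of 19 of the 29 genes (65.5%), against 43.1% of tested genes and 41.1% of all genes. The word TTTGAA of the cell cycle homology region was in 4 (13.8%), against 14.3% and 20.2%. A match describes the letters of the window and shows no binding. The 12 genes with an E2F word had a median log2 fold change of 1.72 in D3 organoids over 2D (range 0.67 to 2.51) and the 17 without one a median of 1.90 (range 0.46 to 2.79). From D3 to D7 the medians were -0.55 (range -1.53 to -0.14) and -0.87 (range -2.16 to -0.18). The ranges of genes with and without the word overlapped in both comparisons.

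**Figure D2:**
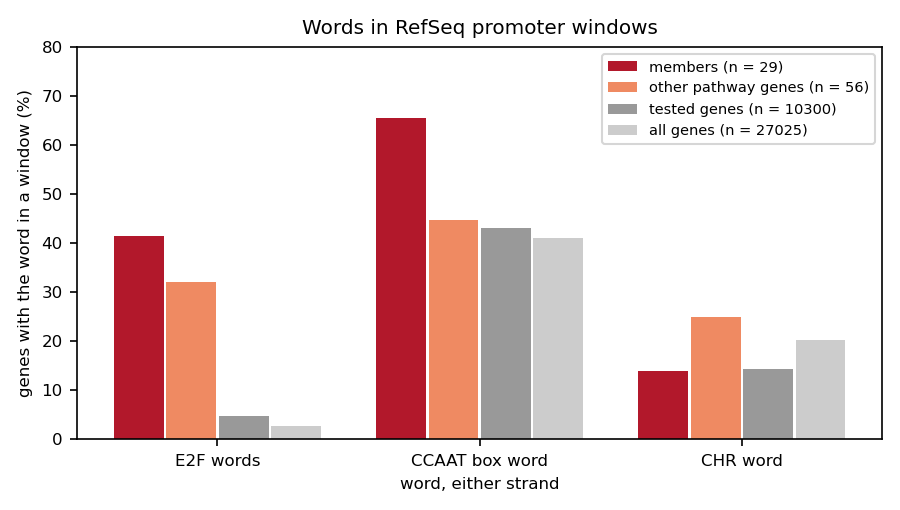
Share of genes (percent, y axis) with an E2F word, the CCAAT box word or the cell cycle homology region (CHR) word in a RefSeq promoter window, for the 29 replication genes with a window, 56 other genes of the pathway, the tested genes and all genes. E2F words were in 41.4% of the replication genes and 32.1% of the other pathway genes, against 4.76% of tested genes.

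Among the 11 licensing genes, 8 were lower in 2D than *in vivo* (21.7% of all genes). In D3 organoids, 7 of the 11 were higher than *in vivo* (14.1% of all genes). The calls of *Cdt1*, *Mcm7* and *Mcm4* in 2D were lost in 10, 6 and 2 of the alternative fits. Of the same 11, 10 were higher in D3 organoids than in 2D, and 10 fell from D3 to D7 (19.3% and 9.9% of all genes). *Cdc6*, the loader that brings the helicase to the origin, was at 23.6 and 19.97 CPM *in vivo*, 8.16 and 4.45 in 2D, 40.1 and 32.04 at D3, and 20.4 and 14.4 at D7. Both 2D libraries lay far below the other 6 and both D3 libraries above them. It was 3.44-fold lower in 2D than *in vivo* (log2 fold change -1.78 ± 0.32, adjusted p = 0.00022). In D3 organoids it was 5.69-fold higher than in 2D (log2 fold change 2.51 ± 0.31, adjusted p = 6.1e-06). These were the largest called changes of a licensing gene in both comparisons. *Cdt1*, its partner in loading, was at 38.3 and 33.6 CPM *in vivo*, 25.9 and 21.9 in 2D, 78.0 and 56.8 at D3, and 33.6 and 39.01 at D7. *Gmnn*, which encodes geminin, the inhibitor of CDT1, was at 28.8 and 27.8 CPM *in vivo*, 24.3 and 14.6 in 2D, 42.5 and 42.1 at D3, and 18.8 and 17.3 at D7. The ratio of *Cdt1* to *Gmnn* counts was 1.33 and 1.21 *in vivo*, 1.07 and 1.49 in 2D, 1.84 and 1.35 at D3, and 1.79 and 2.25 at D7. It overlapped between D3 and D7 and was not tested. The D7 values of *Cdt1* overlapped those *in vivo*, whereas both D7 values of *Gmnn* lay below its *in vivo* values. Neither was called between D7 organoids and *in vivo* TECs (*Cdt1*, log2 fold change 0.01 ± 0.21, adjusted p = 0.98; *Gmnn*, log2 fold change -0.64 ± 0.25, adjusted p = 0.053). *Orc6* fell from D3 to D7 as well (log2 fold change -0.83 ± 0.27, adjusted p = 0.036), a call lost without D3 replicate 1, D7 replicate 1 or D7 replicate 2 (adjusted p from 0.054 to 0.3). *Orc1*, the largest subunit of the origin recognition complex, had only 8 to 40 counts per library. Its level was 2.26 and 1.69 CPM *in vivo*, 1.45 and 4.07 in 2D, 3.20 and 5.57 at D3, and 3.83 and 2.36 at D7, and it was called in no comparison. At this depth its log2 fold changes had SEs of 0.69 to 0.74, the widest of the 37 genes.

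The 6 subunits of the MCM2-7 helicase act as a single ring, and all 6 rose from 2D to D3 organoids and fell from D3 to D7. The estimates differed in size, but differences between the 6 genes were not tested. *Mcm4* (GRCm39 chr16:15440211-15455264, minus strand) was at 123 and 79.9 CPM *in vivo*, 73.8 and 56.3 in 2D, 166 and 146 at D3, and 48.2 and 43.3 at D7. It had its lowest values in D7 organoids, with no overlap with any other group. It fell 3.39-fold from D3 to D7 (log2 fold change -1.76 ± 0.21, adjusted p = 2.6e-05), and at D7 it was 2.20-fold lower than *in vivo* (log2 fold change -1.14 ± 0.21, adjusted p = 0.00043). *Mcm7* was at 98.7 and 99.5 CPM *in vivo*, 73.2 and 67.1 in 2D, 255 and 199 at D3, and 140.4 and 167 at D7. Its D7 values stayed above both *in vivo* values, by 1.55-fold (log2 fold change 0.63 ± 0.17, adjusted p = 0.0077), but this call was lost without D7 replicate 2 (adjusted p = 0.093). It was also the licensing gene with the largest called rise in D3 organoids over *in vivo* (2.29-fold, log2 fold change 1.2 ± 0.17, adjusted p = 3.3e-05). The ratio of *Mcm4* to *Mcm7* counts within a library was 1.24 and 0.802 *in vivo*, 1.01 and 0.840 in 2D, 0.652 and 0.730 in D3 organoids and 0.344 and 0.260 in D7 organoids. It was lowest in D7 organoids. This ratio was chosen after the values were seen and is given with no test. *Mcm6* was at 148 and 126 CPM *in vivo*, 83.6 and 63.5 in 2D, 236 and 229 at D3, and 86.2 and 74.5 at D7. Like *Mcm4*, it was lower in D7 organoids than *in vivo* (log2 fold change -0.77 ± 0.17, adjusted p = 0.0023). *Mcm2* was at 56.2 and 35.4 CPM *in vivo*, 24.1 and 20.9 in 2D, 93.2 and 75.8 at D3, and 31.5 and 28.8 at D7. It fell from D3 to D7 (log2 fold change -1.48 ± 0.23, adjusted p = 0.00028). Its D7 values lay below both *in vivo* ones, but this difference was not called (log2 fold change -0.6 ± 0.23, adjusted p = 0.052). *Mcm3* was at 138 and 123 CPM *in vivo*, 72.9 and 71.7 in 2D, 299.7 and 222 at D3, and 128 and 128 at D7. *Mcm5* was at 38.9 and 50.1 CPM *in vivo*, 20.5 and 14.8 in 2D, 81.2 and 90.97 at D3, and 49.1 and 53.4 at D7. Both lay near their *in vivo* values at D7, with log2 fold changes of -0.03 and 0.20 that were not called. *Mcm5* had the largest called difference of a licensing gene between D7 organoids and 2D (2.90-fold higher, log2 fold change 1.53 ± 0.22, adjusted p = 2.4e-05). For *Mcm7*, 83.6% of the 50-base stretches in the last 500 bases of its transcript were shared with *Cops6*, which ends there on the other strand, or with the predicted gene *Gm5487*, so its counts are uncertain.

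Among the 6 origin firing genes, 4 were lower in 2D than *in vivo* (21.7% of all genes). In D3 organoids, 3 of the 6 were higher than *in vivo* (14.1% of all genes). All 6 were higher in D3 organoids than in 2D, and 4 fell from D3 to D7 (19.3% and 9.9% of all genes). The calls of *Gins1* and *Gins4* in D3 organoids over *in vivo* were each lost in 4 of the alternative fits. That of *Gins4* over 2D was lost in 4 as well. *Mcm10*, which helps to activate the loaded helicase, was at 46.8 and 21.4 CPM *in vivo*, 8.88 and 5.93 in 2D, 50.9 and 42.2 at D3, and 20.04 and 23.6 at D7. The 2D libraries were the lowest, and the *in vivo* libraries differed from each other by a log2 value of 1.13, the widest *in vivo* gap among the 37 genes. Its level in 2D was 4.56-fold below that *in vivo* (log2 fold change -2.19 ± 0.34, adjusted p = 6e-05), the largest fall in 2D of all 37 genes. It was 6.26-fold below that of D3 organoids (log2 fold change 2.65 ± 0.34, adjusted p = 8.8e-06) and 2.93-fold below that of D7 organoids (log2 fold change 1.55 ± 0.35, adjusted p = 0.0016). *Cdc45*, a subunit of the active helicase, was at 15.96 and 16.3 CPM *in vivo*, 6.16 and 3.15 in 2D, 19.5 and 20.1 at D3, and 7.79 and 6.70 at D7. Its D3 values were close to those *in vivo*, while its D7 values lay below all of these. It was the only firing gene called between D7 organoids and *in vivo* TECs (log2 fold change -1.15 ± 0.33, adjusted p = 0.013). That call was lost without D7 replicate 2 (adjusted p = 0.098).

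The GINS complex is a ring of 4 subunits that holds the active helicase together. From D3 to D7, 2 of its genes were called lower and 2 were not called. Whether the 4 changes differed from each other was not tested. *Gins2* was at 27.1 and 24.6 CPM *in vivo*, 13.2 and 11.5 in 2D, 51.04 and 61.7 at D3, and 21.8 and 15.8 at D7. It was highest in both D3 libraries, 2.19-fold above *in vivo* (log2 fold change 1.13 ± 0.23, adjusted p = 0.0011). At D7 it was 2.98-fold below D3 (log2 fold change -1.57 ± 0.23, adjusted p = 0.0002), the largest fall of a firing gene. *Gins1* fell as well (log2 fold change -1.48 ± 0.28, adjusted p = 0.0013), with 17.0 and 13.8 CPM *in vivo*, 11.4 and 10.2 in 2D, 26.4 and 28.1 at D3, and 11.3 and 8.08 at D7. *Gins3* was at 25.3 and 14.8 CPM *in vivo*, 7.43 and 7.41 in 2D, 20.4 and 21.5 at D3, and 17.1 and 21.1 at D7. All its organoid values lay within the range of the *in vivo* libraries, and its change from D3 to D7 was not called (log2 fold change -0.14 ± 0.28, adjusted p = 0.78). *Gins4* was at 18.6 and 20.4 CPM *in vivo*, 22.8 and 17.2 in 2D, 31.7 and 32.2 at D3, and 20.7 and 21.1 at D7. It was called neither between 2D and *in vivo* (log2 fold change 0.04 ± 0.24, adjusted p = 0.92) nor from D3 to D7 (log2 fold change -0.61 ± 0.23, adjusted p = 0.07). Both its D7 values still lay below both D3 values. All 50-base stretches in the last 500 bases of *Gins2* lie also in transcripts of *Gse1* from the other strand, which makes its counts uncertain in the same way as those of *Mcm7*.

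All 6 polymerase and primase genes were lower in 2D than *in vivo* (21.7% of all genes). All 6 were also higher than in 2D in D3 and in D7 organoids (19.3% and 24.4% of all genes). The call of *Pola2* in D7 organoids over 2D was weak (log2 fold change 0.73 ± 0.29, adjusted p = 0.048). It was lost in 10 of the alternative fits, among them limma-voom, the study's test (adjusted p = 0.06). That of *Prim2* over 2D at D7 was lost in 1 fit, as was that of *Pole* between 2D and *in vivo*. *Pola1*, the catalytic subunit of polymerase alpha, which starts each new strand with primase, was at 66.98 and 62.1 CPM *in vivo*, 21.4 and 22.97 in 2D, 107 and 102 at D3, and 71.6 and 76.6 at D7. The 2D values lay below those of every other library. *Pola1* had the largest called rise of the group over 2D in D3 organoids (4.70-fold, log2 fold change 2.23 ± 0.18, adjusted p = 3.8e-08) and in D7 organoids (3.34-fold, log2 fold change 1.74 ± 0.18, adjusted p = 6.5e-07). *Prim2*, the large primase subunit, was at 29.3 and 26.9 CPM *in vivo*, 7.43 and 9.26 in 2D, 33.7 and 32.2 at D3, and 15.1 and 18.5 at D7. It had the largest fall of the group in 2D (3.36-fold, log2 fold change -1.75 ± 0.26, adjusted p = 3.2e-05). Its D7 values lay below both *in vivo* values (log2 fold change -0.75 ± 0.24, adjusted p = 0.022). That call was lost in 4 of the alternative fits, with adjusted p from 0.05 to 0.18 in them. *Prim1*, the catalytic primase subunit, was at 37.5 and 21.4 CPM *in vivo*, 14.5 and 11.5 in 2D, 63.2 and 50.4 at D3, and 30.9 and 29.2 at D7. It had the largest called rise of the group in D3 organoids over *in vivo* (log2 fold change 0.95 ± 0.25, adjusted p = 0.0086). That call was lost without *in vivo* replicate 2 (adjusted p = 0.093) or D3 replicate 1 (adjusted p = 0.095). Of the 50-base stretches at its 3′ end, 32.8% are shared with the antisense gene *Gm66417*. From D3 to D7, the 4 genes of the polymerase alpha and primase complex fell, *Pola2* the most (log2 fold change -1.0 ± 0.27, adjusted p = 0.014). The falls of *Pola1*, *Prim1* and *Prim2* were lost in 6, 3 and 2 fits that left out 1 library. *Pola2* was at 27.1 and 32.6 CPM *in vivo*, 8.52 and 13.3 in 2D, 33.7 and 38.6 at D3, and 21.6 and 14.2 at D7. Its fall was not called without D7 replicate 2 (adjusted p = 0.19) or without D3 replicate 2 (adjusted p = 0.068). *Pold1* and *Pole*, the catalytic subunits of the lagging and leading strand polymerases, were not called from D3 to D7 (*Pold1*, log2 fold change -0.32 ± 0.24, adjusted p = 0.38; *Pole*, log2 fold change -0.63 ± 0.29, adjusted p = 0.14). *Pold1* was at 30.2 and 41.6 CPM *in vivo*, 9.25 and 13.3 in 2D, 39.4 and 35.9 at D3, and 27.3 and 33.3 at D7. *Pole* was at 19.95 and 17.3 CPM *in vivo*, 4.89 and 10.2 in 2D, 26.6 and 36.2 at D3, and 22.6 and 17.7 at D7. For both genes the 2D libraries lay below the other 6.

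The 10 genes of the clamp, its loader, the Okazaki fragment enzymes and the single-strand binding protein RPA held the most genes with no called change from D3 to D7, as 4 fell and 6 were not called. Of all genes, 9.9% fell from D3 to D7. Of the 10, 8 were lower in 2D than *in vivo* (21.7% of all genes). In D3 organoids, 7 were higher than *in vivo* and all 10 higher than in 2D (14.1% and 19.3% of all genes). *Lig1* (GRCm39 chr7:13011239-13045350, plus strand), the ligase that seals Okazaki fragments, was at 218 and 200.5 CPM *in vivo*, 91.7 and 87.8 in 2D, 496 and 390.2 at D3, and 351 and 399 at D7. All organoid values lay above all *in vivo* values and all 2D values below them. *Lig1* was 2.33-fold lower in 2D than *in vivo* (log2 fold change -1.22 ± 0.16, adjusted p = 9.7e-06). In D3 organoids it was 2.12-fold higher than *in vivo* (log2 fold change 1.08 ± 0.16, adjusted p = 4.6e-05), and at D7 still 1.79-fold higher (log2 fold change 0.84 ± 0.16, adjusted p = 0.00048). Against 2D it had the largest called rise of the group, 4.93-fold in D3 organoids (log2 fold change 2.30 ± 0.16, adjusted p = 8.1e-09) and 4.17-fold in D7 organoids (log2 fold change 2.06 ± 0.16, adjusted p = 2.3e-08). Its change from D3 to D7 was not called (log2 fold change -0.24 ± 0.15, adjusted p = 0.3). *Fen1* (GRCm39 chr19:10176479-10182097, minus strand), the flap nuclease that trims the same fragments before they are sealed, was at 25.9 and 23.9 CPM *in vivo*, 30.6 and 17.97 in 2D, 53.2 and 37.1 at D3, and 16.3 and 12.4 at D7. Both D7 values were below those of every other library. *Fen1* fell 3.10-fold from D3 to D7 (log2 fold change -1.63 ± 0.28, adjusted p = 0.00063), the largest fall of the group. It was the only one of the 37 genes lower in D7 organoids than in 2D (log2 fold change -0.74 ± 0.28, adjusted p = 0.042). That call was lost in 6 of the alternative fits, with adjusted p from 0.052 to 0.49 in them. The ratio of *Fen1* to *Lig1* counts was 0.119 in both *in vivo* libraries, 0.334 and 0.205 in 2D, 0.107 and 0.0950 in D3 organoids and 0.0465 and 0.0311 in D7 organoids. The groups do not overlap in this ratio, which was chosen after the values were seen and not tested. Of the 50-base stretches at the 3′ end of *Fen1*, 83.6% are shared with the antisense gene *Gm10143*.

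*Pcna*, the clamp itself, was at 109.8 and 89.4 CPM *in vivo*, 57.5 and 47.8 in 2D, 106 and 123 at D3, and 76.7 and 82.4 at D7. It was lower in 2D (log2 fold change -0.92 ± 0.18, adjusted p = 0.00053), not called between D3 organoids and *in vivo* (log2 fold change 0.20 ± 0.17, adjusted p = 0.43) and fell from D3 to D7 (log2 fold change -0.53 ± 0.18, adjusted p = 0.041). The fall was not called without any 1 of the D3 or D7 libraries (adjusted p from 0.062 to 0.19). In the RFC loader, the estimates differed between subunits, a difference that was not tested. *Rfc4* was at 37.1 and 19.5 CPM *in vivo*, 5.98 and 9.08 in 2D, 37.2 and 33.2 at D3, and 19.9 and 22.9 at D7. It had the largest fall of the group in 2D (3.74-fold, log2 fold change -1.90 ± 0.32, adjusted p = 0.00013), but 64.3% of the 50-base stretches at its 3′ end are shared with *Eif4a2* on the other strand. *Rfc1*, the large subunit, was at 174 and 176 CPM *in vivo*, 178 and 185 in 2D, 272 and 227 at D3, and 184 and 210.2 at D7. Its 2D values lay just above the *in vivo* ones and were not called (log2 fold change 0.05 ± 0.15, adjusted p = 0.81). It rose in D3 organoids over *in vivo* (log2 fold change 0.51 ± 0.15, adjusted p = 0.018) and over 2D (log2 fold change 0.46 ± 0.15, adjusted p = 0.025). Either call was lost in 3 fits that left out 1 library, with adjusted p from 0.062 to 0.13 and from 0.082 to 0.16. *Rfc2* was at 39.2 and 54.97 CPM *in vivo*, 18.3 and 24.6 in 2D, 64.5 and 56.7 at D3, and 54.8 and 63.4 at D7. *Rfc5* was at 21.9 and 26.6 CPM *in vivo*, 12.3 and 16.1 in 2D, 49.4 and 46.5 at D3, and 37.1 and 48.1 at D7. Neither was called from D3 to D7, with log2 fold changes of -0.04 and -0.18. *Rfc3* was at 57.4 and 45.98 CPM *in vivo*, 25.2 and 31.5 in 2D, 90.3 and 95.01 at D3, and 65.4 and 62.3 at D7 and fell (log2 fold change -0.54 ± 0.18, adjusted p = 0.048), a call lost in 5 fits that left out 1 library (adjusted p from 0.05 to 0.25). *Rfc5* was above *in vivo* at D7 (log2 fold change 0.80 ± 0.22, adjusted p = 0.01). That call was lost without *in vivo* replicate 1 (adjusted p = 0.075) or D7 replicate 2 (adjusted p = 0.13). Of the RPA genes, *Rpa2* was at 29.5 and 26.01 CPM *in vivo*, 12.7 and 14.3 in 2D, 51.2 and 55.4 at D3, and 40.7 and 50.04 at D7. It had no called change from D3 to D7 (log2 fold change -0.24 ± 0.20, adjusted p = 0.45) and was higher at D7 than *in vivo* (log2 fold change 0.71 ± 0.21, adjusted p = 0.014), the latter call being lost without *in vivo* replicate 2 (adjusted p = 0.069) or D7 replicate 2 (adjusted p = 0.15). *Rpa1* was at 73.7 and 60.3 CPM *in vivo*, 36.8 and 28.3 in 2D, 114 and 102 at D3, and 56.5 and 61.3 at D7. It fell from D3 to D7 (log2 fold change -0.87 ± 0.19, adjusted p = 0.0031) and was not called between D7 organoids and *in vivo* TECs (log2 fold change -0.19 ± 0.19, adjusted p = 0.48).

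All 4 nucleotide supply genes were higher in D3 organoids than *in vivo* and fell from D3 to D7 (14.1% and 9.9% of all genes). Only *Tyms* was called lower in 2D than *in vivo* (21.7% of all genes). Of the falls from D3 to D7, only that of *Rrm2* was called in every alternative fit. Those of *Tk1*, *Rrm1* and *Tyms* were lost in 3, 3 and 1 fits that left out 1 library. The rise of *Tyms* in D3 organoids over *in vivo* was lost in 4 such fits. *Tk1* (GRCm39 chr11:117702770-117717042, minus strand), thymidine kinase of the salvage pathway, was at 26.2 and 23.6 CPM *in vivo*, 21.6 and 14.1 in 2D, 107 and 140.4 at D3, and 78.4 and 86.7 at D7. Every organoid library lay well above every other one. It had the largest rise of all 37 genes in D3 organoids, 4.98-fold over *in vivo* (log2 fold change 2.32 ± 0.22, adjusted p = 2.9e-07) and 6.94-fold over 2D (log2 fold change 2.79 ± 0.23, adjusted p = 3.6e-08). At D7 it was still 3.31-fold above *in vivo* (log2 fold change 1.73 ± 0.22, adjusted p = 8.9e-06) and 4.62-fold above 2D (log2 fold change 2.21 ± 0.22, adjusted p = 5e-07). *Rrm2* (GRCm39 chr12:24757811-24764145, plus strand), the S phase subunit of ribonucleotide reductase, was at 65.2 and 52.6 CPM *in vivo*, 49.1 and 28.2 in 2D, 171 and 160.1 at D3, and 43.3 and 29.9 at D7. In D3 organoids it was 2.81-fold over *in vivo* (log2 fold change 1.49 ± 0.23, adjusted p = 9.8e-05). By D7 it had fallen 4.48-fold (log2 fold change -2.16 ± 0.24, adjusted p = 1.2e-05), the largest fall of the 37 genes. Its D7 values lay below both *in vivo* libraries (log2 fold change -0.67 ± 0.24, adjusted p = 0.037). That call was lost when scaled by library size (adjusted p = 0.061) and in 4 fits that left out 1 library, the furthest without D7 replicate 2 (adjusted p = 0.3). *Rrm1*, the other subunit of the enzyme, was at 108 and 111 CPM *in vivo*, 124 and 122 in 2D, 225 and 189 at D3, and 135 and 144 at D7. In 2D both values lay above the *in vivo* ones, a difference that was not called (log2 fold change 0.17 ± 0.15, adjusted p = 0.41). It fell by 0.57 on the log2 scale from D3 to D7. *Tyms*, which makes thymidylate *de novo*, was at 47.9 and 46.8 CPM *in vivo*, 21.8 and 13.5 in 2D, 76.99 and 81.4 at D3, and 48.1 and 35.7 at D7. It had the only called fall of the group in 2D (2.68-fold, log2 fold change -1.42 ± 0.24, adjusted p = 0.00011). The ratio of *Rrm2* to *Tk1* counts was 2.49 and 2.23 *in vivo*, 2.28 and 2.00 in 2D, 1.59 and 1.14 in D3 organoids and 0.552 and 0.345 in D7 organoids. It too was chosen after the values were seen and is given with no test.

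**Figure D3:**
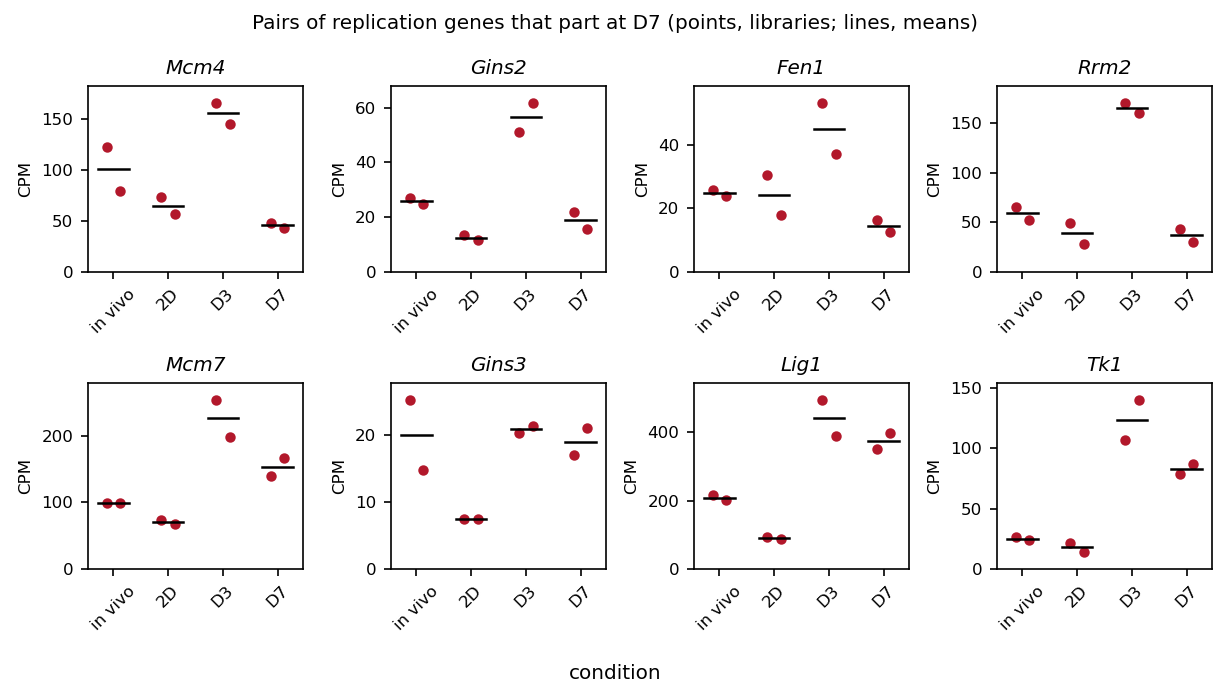
Level (CPM, linear axis from 0) of 4 pairs of genes, each pair in 1 column, in the 4 conditions. Points are libraries and lines are means of 2. The upper genes (*Mcm4*, *Gins2*, *Fen1*, *Rrm2*) fall from D3 to D7 to below their *in vivo* mean, while the lower genes (*Mcm7*, *Gins3*, *Lig1*, *Tk1*) stay near or above it.

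From D3 to D7, the 37 genes thus ranged from a log2 fold change of -2.16 (*Rrm2*) to -0.04 (*Rfc2*). The 11 that were not called were *Orc1*, *Gins3*, *Gins4*, *Pold1*, *Pole*, *Rfc1*, *Rfc2*, *Rfc4*, *Rfc5*, *Lig1* and *Rpa2*. A p over the threshold does not show that their level was held. By role, the median was -1.27 for origin firing, -1.03 for licensing, -0.77 for polymerases, -0.75 for nucleotide supply and -0.44 for the clamp, Okazaki fragment and RPA genes, beside 0.06 over all genes. The ranges of the 5 role groups overlapped. Set against *in vivo* TECs, the 5 genes higher in D7 organoids were *Mcm7*, *Rfc5*, *Lig1*, *Rpa2* and *Tk1* (18% of all genes were higher). The 7 lower ones were *Mcm4*, *Mcm6*, *Cdc45*, *Pola2*, *Prim2*, *Fen1* and *Rrm2* (16.8% of all genes were lower). Both counts are close to the shares of all genes, so they do not set the 37 genes apart. These 12 came from every role group, and 8 of them were called in every alternative fit that kept all libraries. With the fits that left out a library, only *Mcm4*, *Mcm6*, *Lig1* and *Tk1* were called in all, and the other 8 were lost in 1 to 8 fits each.

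**Figure D4:**
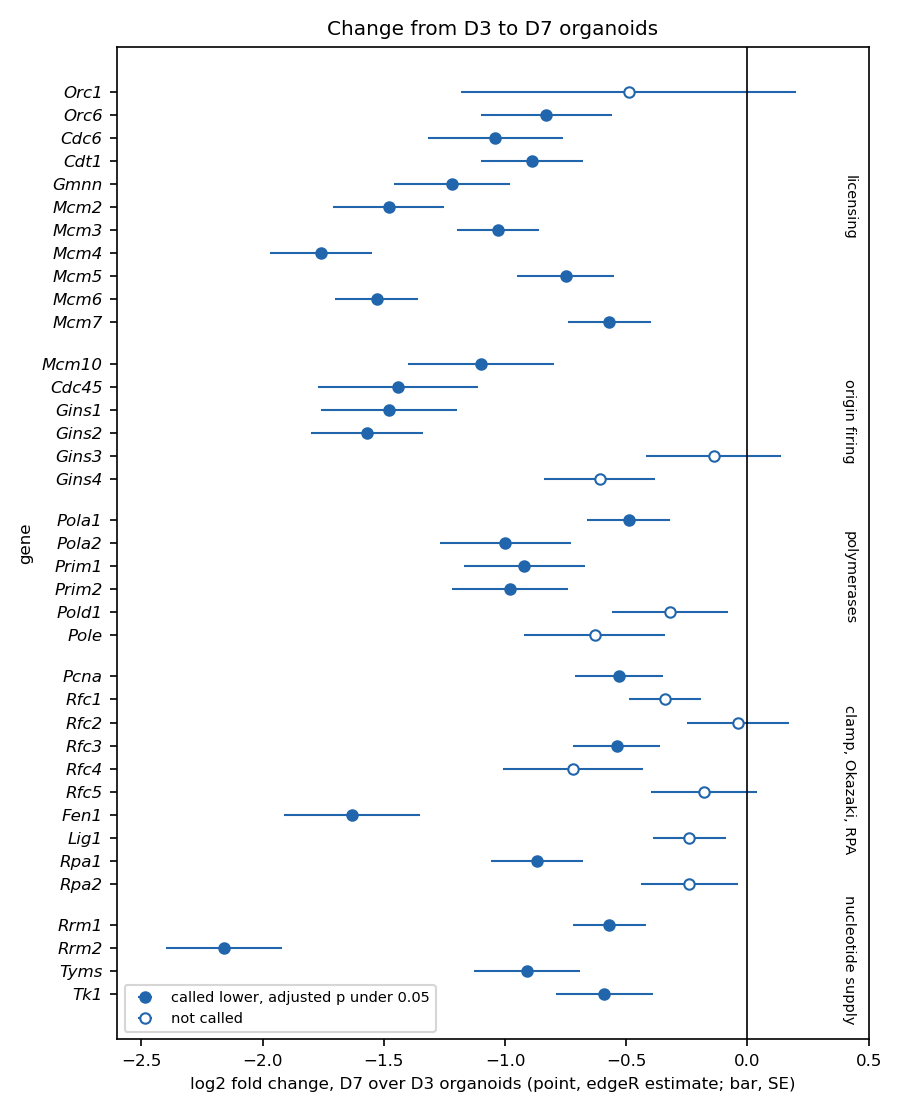
Change of the 37 genes from D3 to D7 organoids by role, as log2 fold change (x axis; points, edgeR estimates; bars, SE). Filled points are the 26 genes called lower and open points the 11 not called, and every point lies below 0, from -2.16 for *Rrm2* to -0.04 for *Rfc2*.

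Another 66 genes of the same pathways were listed by role, of which 65 were tested. In 2D, 35 were lower than *in vivo* and 2 higher (21.7% and 19.9% of all genes). In D3 organoids 43 were higher than in 2D and 1 lower (19.3% and 19.1%), and 22 were higher than *in vivo* and 2 lower (14.1% and 14%). In D7 organoids 24 were higher than in 2D and 6 lower (24.4% and 21.1%), and 3 were higher than *in vivo* and 20 lower (18% and 16.8%). From D3 to D7, 29 fell and 0 rose (9.9% and 10.9%). Of the 12 initiation factors, 2 fell from D3 to D7, *Topbp1* (log2 fold change -0.92 ± 0.17, adjusted p = 0.0012), which activates the checkpoint and helps origins fire, and *Dbf4* (log2 fold change -0.85 ± 0.19, adjusted p = 0.0049), the activator of the CDC7 kinase, whose fall was not called without D3 replicate 1 (adjusted p = 0.088). *Dbf4* stood apart in 2D, where it was higher than *in vivo* (log2 fold change 0.55 ± 0.19, adjusted p = 0.03), as was *Nme1*, a nucleoside diphosphate kinase (log2 fold change 0.59 ± 0.17, adjusted p = 0.0092). Both calls were lost when scaled by library size (adjusted p = 0.13 and 0.062) and without 2D replicate 1 (adjusted p = 0.2 and 0.12), that of *Dbf4* also without *in vivo* replicate 2 (adjusted p = 0.17). Of the 18 fork genes, 8 fell, with the largest changes in *Dscc1*, of the alternative clamp loader (log2 fold change -2.70 ± 0.52, adjusted p = 0.0015), and *Tipin*, of the fork protection complex (log2 fold change -1.44 ± 0.21, adjusted p = 0.00021). *Dscc1* had only 36 and 6 counts at D7 (4.45 and 1.18 CPM), against 102 and 157 counts at D3. Of the 11 further nucleotide genes, 3 fell, led by *Dck* (log2 fold change -1.88 ± 0.37, adjusted p = 0.0017), which salvages deoxycytidine, and *Dtymk* (log2 fold change -1.21 ± 0.22, adjusted p = 0.001), which phosphorylates thymidylate. *Cmpk1*, a nucleotide kinase, was lower in D3 organoids than in 2D (log2 fold change -1.28 ± 0.25, adjusted p = 0.00066) and than *in vivo* (log2 fold change -0.83 ± 0.25, adjusted p = 0.021), the latter call being lost in 3 fits that left out 1 library (adjusted p from 0.082 to 0.35). Of the 10 genes of chromatin assembly and DNA methylation at the fork, 7 fell, with *Uhrf1* (log2 fold change -1.56 ± 0.24, adjusted p = 0.00032), which guides maintenance methylation, and *Cdca7* (log2 fold change -1.5 ± 0.25, adjusted p = 0.00061), a partner of the HELLS remodeller, ahead of the others.

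Of the 14 genes of the E2F and RB family, 9 fell from D3 to D7 (9.9% of all genes). The largest changes were in *E2f4* (log2 fold change -1.69 ± 0.35, adjusted p = 0.0028) and *E2f7* (log2 fold change -1.56 ± 0.23, adjusted p = 0.00024), both repressors of E2F targets. *E2f4* was at 35.0 and 28.4 CPM at D3, and at 14.2 and 4.53 at D7 (115 and 23 counts), so its D7 libraries lay far apart. *E2f1*, an activator of replication genes, was at 7.11 and 8.30 CPM *in vivo*, 2.90 and 3.89 in 2D, 21.6 and 17.6 at D3, and 10.1 and 10.2 at D7. Its values were lowest in 2D and highest in D3 organoids, where it rose 5.73-fold over 2D (log2 fold change 2.52 ± 0.36, adjusted p = 2.9e-05). The other activators went otherwise. *E2f2* was at 16.1 and 14.9 CPM *in vivo*, 3.81 and 2.78 in 2D, 15.2 and 11.7 at D3, and 12.6 and 16.7 at D7, lowest in 2D but with overlapping values in the other 3 conditions. *E2f3* was at 31.1 and 37.8 CPM *in vivo*, 43.3 and 42.97 in 2D, 48.9 and 48.2 at D3, and 50.3 and 53.6 at D7, lowest *in vivo* and highest at D7. *E2f7* was at 49.1 and 43.3 CPM *in vivo*, 12.5 and 12.2 in 2D, 43.5 and 41.5 at D3, and 16.9 and 11.4 at D7. Its D3 values lay close to those *in vivo* (log2 fold change -0.12 ± 0.22, adjusted p = 0.73) and its D7 values near those of 2D. *Tfdp2*, a dimerization partner of E2F, was lower in D3 organoids than *in vivo* (log2 fold change -0.53 ± 0.17, adjusted p = 0.023), a call lost in 5 of the alternative fits (adjusted p from 0.052 to 0.26).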

How the data were processed

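Gene counts of 8 QuantSeq 3′ libraries were used, 2 per condition. Reads had been aligned by STAR 2.7.0e (GRCm39), and raw counts per gene were deposited for each library. The counting strand and annotation release are not given in the sources used here. Symbols and positions were taken from GENCODE M39, and 56236 of 56923 identifiers matched. Genes that reached 1 CPM in 3 or more libraries were kept (14504), scaled by TMM (factors 0.8798 to 1.094) and fitted with edgeR 4.0.16 (glmQLFit, glmQLFTest; R 4.3.3) with 1 mean per condition and no covariate. P-values were adjusted over all genes tested (Benjamini-Hochberg, threshold 0.05). On simulated counts with known changes set between D7 and D3 organoids, the median estimate lay close to them. The other comparisons were not simulated. Ribosomal RNA genes took 22.7% to 29.4% of the counts of a library.

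The members, gene lists and words were chosen with earlier results of these data known. All members are named by role, and those described in full are the called gene with the largest absolute log2 fold change in each role and comparison, and genes that went against or failed the test where most of their role passed. *Mcm2*, *Mcm3*, *Mcm6*, *Rfc2*, *Rfc5* and the ratios were added after their values were seen. Other pathway genes were named where they had the 2 largest called changes of their list from D3 to D7 or were called against the rest, and *E2f1*, *E2f2* and *E2f3* were added after their values were seen. Alternatives were DESeq2 1.42.0 size factors and Wald test, scaling by library size, leaving out ribosomal RNA genes, limma-voom 3.58.1 (the study's test), other count filters, the 4 libraries compared alone, a replicate block and each library left out.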

Additional observations from a re-analysis of the deposited data

How the results depend on the processing

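The counts of called members stayed within 1.5 times their value under most alternatives, and no direction reversed. Scaling by library size moved the median of all genes to -0.235 in 2D over *in vivo*, 0.288 in D3 organoids over 2D and 0.307 in D7 organoids over 2D, and the median of the 37 genes relative to it stayed at -0.96, 1.71 and 0.75. Under this scaling 4 genes were lower in D7 organoids than *in vivo*, and the mean log2 level differed by -1.08 (2D minus *in vivo*) and -0.90 (D7 minus D3). With a pseudocount of 5 CPM these differences were -0.77 and -0.76. Leaving out 1 library at a time gave 24 to 28 genes lower in 2D than *in vivo*, 13 to 25 higher in D3 organoids than *in vivo*, 2 to 5 higher and 2 to 8 lower in D7 organoids than *in vivo*, 32 to 36 higher in D3 organoids than in 2D, 21 to 24 higher at D7 than in 2D, and 12 to 27 that fell from D3 to D7. The condition with the library left out then rests on 1 library, assumed to vary like the others. Replicate numbers are shared between conditions, but the labels do not say that they mark shared animals, and deviations of same-numbered libraries correlated at 0.0794 to 0.215 across 9009 genes. With a replicate block, 26 genes fell from D3 to D7, 36 higher in D3 organoids than in 2D and 28 lower in 2D than *in vivo*, while 5 were higher and 9 lower in D7 organoids than *in vivo*. Of the 148 calls of the 37 genes over the 6 comparisons, 100 held in every alternative fit and 48 were lost in at least 1, among them 8 of the 12 between D7 organoids and *in vivo* TECs and 16 of the 26 from D3 to D7. The cause was not tested. Depth limits *Orc1* above all.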
